A study of Mus musculus with 2 samples.

Results

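The 10 genes described here encode the heat shock response and its main chaperones, and they were taken by name from the 21911 protein-coding genes of the GENCODE M21 annotation of mm10. They are the regulator Hsf1, the HSP70 proteins Hspa1a, Hspa8 and Hspa5, the HSP90 proteins Hsp90aa1 and Hsp90ab1, the small heat shock protein Hspb1, and the co-chaperones Dnajb1, Stip1 and Bag3. Each gene was examined over its body plus 20 kb on each side, and its promoter was everything within 1 kb of any of its annotated transcript starts. All 10 symbols were found in the annotation.

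Accessible chromatin was mapped by DNase-seq, in which the enzyme DNase I cuts DNA that it can reach in nuclei and the cut ends are sequenced. The single group was MN1, a mouse cell line of strain B6NCrl that the labels call immortalized, with 2 biological replicates and 1 library for each. Neither a tissue nor a treatment is named in the labels, which list age and developmental stage as unknown and sex as not collected, so the line could not be set against the markers of a named cell type. With 1 group there is no second condition, no heat-shocked sample and no test between groups, and every value below is a description of these cells as they were harvested.

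Chaperones bind proteins that are not fully folded and keep them from clumping. In unstressed cells HSF1 is held inactive, and on heat or other damage it forms trimers that bind heat shock elements, which are inverted repeats of the unit nGAAn, and switch on the stress-inducible chaperone genes. Several of the genes are not mainly stress genes: Hspa8 and Hsp90ab1 are made at high levels in most growing cells, and Hspa5 answers to stress in the endoplasmic reticulum through another element.

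Both libraries came as a list of peaks, each 150 bp wide, and a list of hotspots, which are longer stretches with more cuts than their surroundings. After repeated entries were dropped, the lists held 170600 peaks in replicate 1 and 162983 in replicate 2. Hotspots numbered 140519 (58.9 Mb in all) in replicate 1 and 135294 (54.1 Mb) in replicate 2. Of the peaks on the 19 autosomes, X and Y, 67.1% in replicate 1 and 70.2% in replicate 2 had at least 1 bp in common with a peak in the second list of the pair and are called shared. The authors' score of a peak has a ceiling of 150 and no stated scale, so a peak is given by its percentile, its rank by score in its own list with ties at their mean rank, and percentiles are not compared between lists. The read depth is not given in the files and is therefore unknown.

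The promoters fell into a set with a peak in both libraries, called open here, and a set with a peak in neither, called closed, and none had a peak in 1 library only. A promoter peak was present in both libraries at 8 of the 10 genes, namely Hsf1, Hspa8, Hspa5, Hsp90aa1, Hsp90ab1, Dnajb1, Stip1 and Bag3, against 59.2% of all protein-coding genes. That share was higher among genes whose promoters are rich in CpG dinucleotides, as most of the 10 are, and those shares are given below. Hspa1a, the classic stress-inducible HSP70, and Hspb1, a small heat shock protein that holds unfolded clients and guards the actin cytoskeleton, had no promoter peak in either library. Hotspots gave the same division, with a promoter hotspot in both libraries at 8 of the 10 genes, against 59.4% of all protein-coding genes. Hspa1a and Hspb1 also lacked a promoter hotspot in either library, and 37% of all protein-coding genes had neither a peak nor a hotspot at any start in either library.

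**Figure D1:**
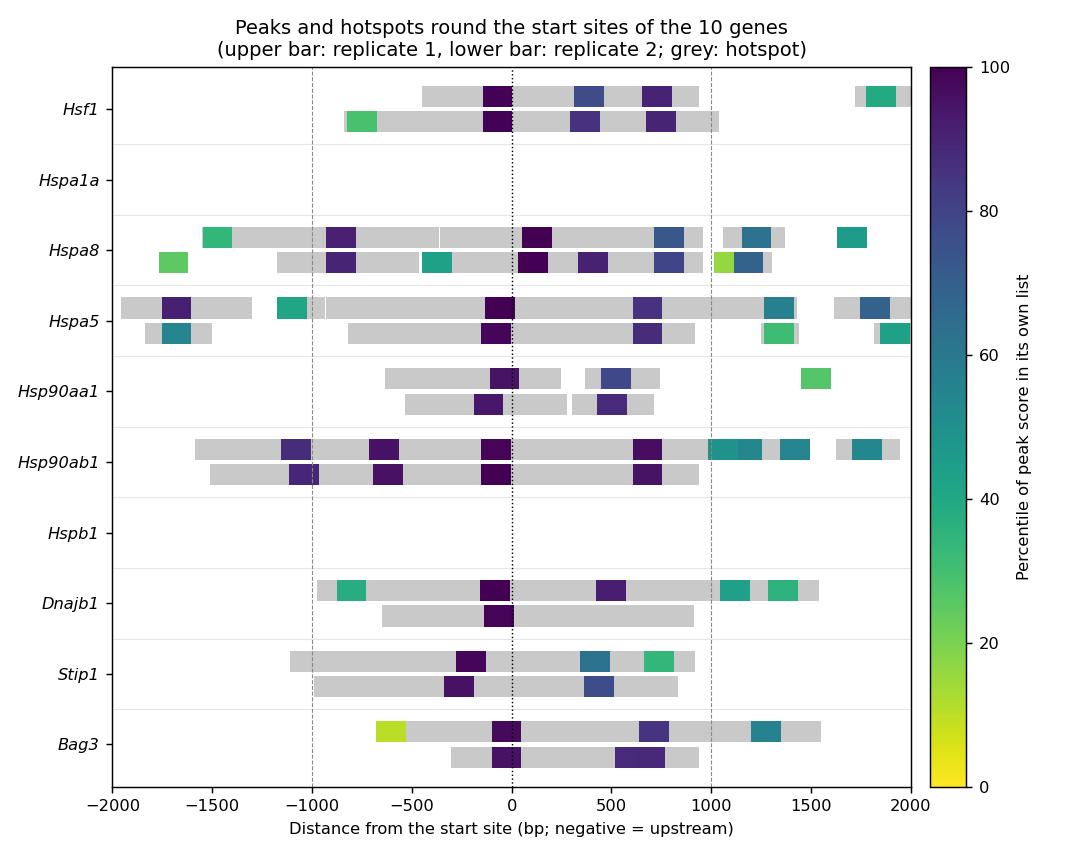
Peaks and hotspots of both libraries round 1 start of each of the 10 genes, namely the start nearest to the best peak of replicate 1, or the outermost start where there is no promoter peak. The x axis is the distance from that start in bp, with negative values upstream. Upper bars are replicate 1 and lower bars replicate 2, grey marks hotspots and colour gives the percentile of each peak's score in its own list, and dashed lines mark 1 kb. Hspa1a and Hspb1 are blank in both libraries, while the other 8 genes have a dark peak near the start.

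Where a promoter was open, its strongest peak stood high in both lists. The best promoter peak lay in the highest 10% of both lists at 8 of the 10 genes, against 41.5% of all protein-coding genes. Counted over open promoters only, it was all 8, against 70.2% of the 12973 genes with a promoter peak in both libraries. The 8 genes had a median of 5 promoter peaks in replicate 1 and 4.5 in replicate 2 from which the best was taken, against 3 in each over the 12973 genes. Over the 8 genes the best peak had a median percentile of 99.2 in replicate 1 (range 94.95 to 99.96) and 98.8 in replicate 2 (range 94.1 to 99.9). Over the 12973 genes the median was 95.5 in replicate 1 and 95.3 in replicate 2. The hotspot that held the best peak had a −log10 q of 100 at all 8 genes in both libraries, which is the cap of the deposited values. The share of the 12973 genes that reached this cap was not computed. The median width of that hotspot over the 8 genes was 2085 bp in replicate 1 and 1639.5 bp in replicate 2, against 1309 and 1258 bp over the 12973 genes.

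**Figure D2:**
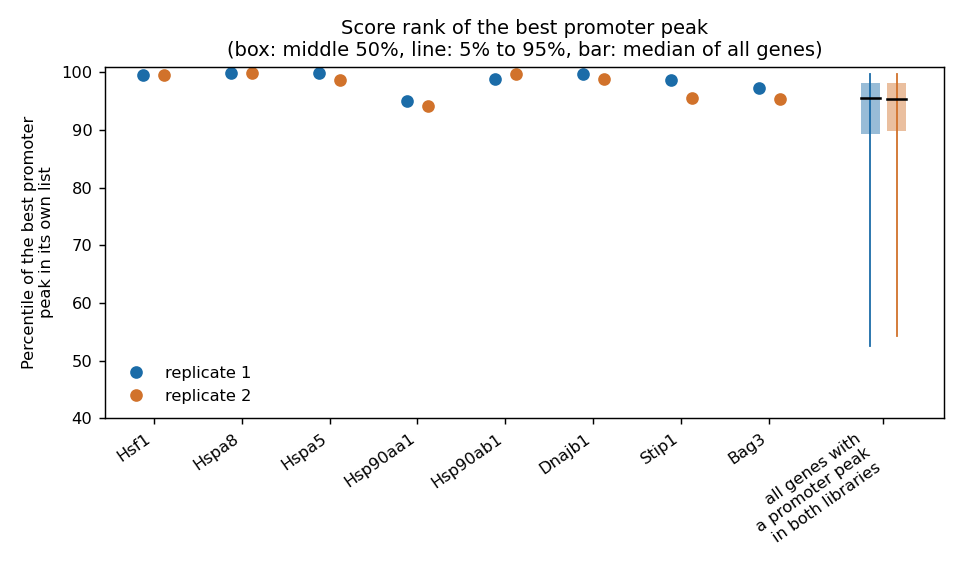
Percentile of the best promoter peak in its own list for the 8 genes with a promoter peak in both libraries (points, blue for replicate 1 and orange for replicate 2) beside the 12973 genes with one in both. In the last column the box holds the middle of those genes, the black bar is their median and the thin line runs from 52.6 to 99.7 in replicate 1 and from 54.3 to 99.6 in replicate 2; the y axis starts at 40. All points lie at 94.1 or above, and those of Hsp90aa1 lie just under the median of all genes in both lists.

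Hsf1, the transcription factor that drives the heat shock response, was itself in open chromatin. Its best peak scored 145 in replicate 1 and 144 in replicate 2, percentile 99.5 in each list, and covered the same 150 bp, centred 72 bp upstream of the outermost start. The gene lies on chromosome 15 from 76477422 to 76501913 on the plus strand. It had 3 promoter peaks in replicate 1 and 5 in replicate 2. Bop1, which encodes a ribosome biogenesis factor, starts 145 bp away on the opposite strand, so accessibility that belongs to Hsf1 and accessibility that belongs to Bop1 cannot be told apart here. The best peak held a CCAAT box and a GC box and no heat shock element.

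Hspa8, the constitutive HSP70 of the cytosol, had the highest-ranked best promoter peak of the 10 genes in each list. Its best peak scored 149 in replicate 1 and 148 in replicate 2, percentiles 99.96 and 99.9. Its centre lay downstream of the nearest start, whereas those of the other 7 genes lay upstream of theirs: it was 126 bp downstream of the outermost start in replicate 1 and 106 bp downstream in replicate 2. The gene lies on chromosome 9 from 40800984 to 40810087 on the plus strand. It had 7 promoter peaks in replicate 1 and 8 in replicate 2, spread over its 9 annotated starts.

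Hspa5 encodes BiP, the HSP70 of the endoplasmic reticulum and the sensor-bound chaperone of the unfolded protein response. The best peak scored 148 in replicate 1 and 140 in replicate 2, percentiles 99.9 and 98.6, centred 60 and 80 bp upstream of the outermost start. It had 7 promoter peaks in each library, and the hotspot round the best peak was 2360 bp wide in replicate 1 and 1740 bp in replicate 2. The endoplasmic reticulum stress element, which is CCAAT and CCACG with any 9 bases between them, is the site known for the induction of this gene. The 250 bases before the outermost start (RefSeq GRCm38, mm10 chr2:34771720-34771969, plus strand) are shown because the best peak of both libraries lies mostly in them, with the CCAAT box, on either strand, in capitals.
Hspa5 upstream: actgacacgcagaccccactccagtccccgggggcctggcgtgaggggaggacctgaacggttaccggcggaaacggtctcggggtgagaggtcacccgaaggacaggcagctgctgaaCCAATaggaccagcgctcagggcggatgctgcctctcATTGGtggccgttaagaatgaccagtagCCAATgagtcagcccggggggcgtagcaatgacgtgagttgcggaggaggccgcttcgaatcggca
One exact match to the stress element was found within 1 kb of a start, 55 to 73 bases downstream of the outermost start. The match lay beyond the end of the best peak of both libraries but inside the hotspot that held that peak. From the outermost start, this hotspot ran from −928 to 1431 bp in replicate 1 and from −822 to 917 bp in replicate 2. The match is shown with 5 bases on each side (chr2:34772020-34772048, plus strand) and the element in capitals.
Hspa5 stress element: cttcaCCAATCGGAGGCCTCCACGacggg
This element occurred in a promoter peak of both libraries at 0 of the 8 genes and at 0.0925% of the 12973 genes.

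Hspa1a was the only HSP70 of the 3 with no peak at its start. The nearest peak was centred 5646 bp from the start in replicate 1 (percentile 16.3) and 6206 bp from it in replicate 2 (percentile 51.0), in both libraries downstream. Around the start, 14050 bp in replicate 1 and 14610 bp in replicate 2 held no peak, and 14138 and 14516 bp held no hotspot. Of the 36-base words within 1 kb of the start, 53.5% occurred elsewhere in the genome. How reads that match several places were treated is unknown, so closed means here only that no peak was called. The gene lies on chromosome 17 from 34969190 to 34972156 on the minus strand and has a near-identical neighbour, Hspa1b. Hspa1l, a testis HSP70, starts 547 bp away on the opposite strand and had no promoter peak in either library. The 250 bases before the start of Hspa1a (chr17:34972157-34972406, minus strand) and of Hspa1b (chr17:34959239-34959488, minus strand) are given so that the copies can be read against each other, with the 2-unit heat shock element in capitals.
Hspa1a upstream: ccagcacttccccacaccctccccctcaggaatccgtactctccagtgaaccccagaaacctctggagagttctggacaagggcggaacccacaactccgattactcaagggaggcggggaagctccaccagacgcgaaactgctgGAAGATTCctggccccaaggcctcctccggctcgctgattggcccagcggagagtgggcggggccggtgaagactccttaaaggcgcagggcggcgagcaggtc
Hspa1b upstream: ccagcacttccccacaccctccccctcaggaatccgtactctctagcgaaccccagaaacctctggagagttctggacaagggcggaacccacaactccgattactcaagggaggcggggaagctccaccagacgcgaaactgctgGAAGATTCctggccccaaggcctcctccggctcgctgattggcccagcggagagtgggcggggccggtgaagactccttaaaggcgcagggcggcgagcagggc
They differed at 3 of 250 positions and were 98.8% identical. Each carries the 2-unit heat shock element, at −104 to −97 from the start in Hspa1a, and at Hspa1a no peak covered it.

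In the cytosolic HSP90 pair the best peak lay close to an annotated start, which was the outermost start at Hsp90ab1 and an inner start at Hsp90aa1. Hsp90ab1, the constitutive form, had its best peak over the same 150 bp in both libraries, centred 79 bp upstream of the outermost start, with scores of 142 in replicate 1 and 146 in replicate 2 (percentiles 98.8 and 99.8). Hsp90aa1, the inducible form, had the lowest-ranked best peak of the 8 genes in each list, with scores of 127 in replicate 1 and 122 in replicate 2 (percentiles 94.95 and 94.1). That peak lay 6298 bp downstream of the outermost start in replicate 1 and 6218 bp downstream in replicate 2, close to inner starts, 35 and 115 bp upstream of the nearest of them. At the outermost start itself the highest peak was centred at −422 bp in replicate 1 (percentile 83.5) and at −402 bp in replicate 2 (percentile 86.9), where a minus sign means upstream. Hsp90aa1 lies on chromosome 12 from 110690605 to 110702728 and Hsp90ab1 on chromosome 17 from 45567775 to 45573271, both on the minus strand. The libraries were unlike at Hsp90ab1, with 11 promoter peaks in replicate 1 and 4 in replicate 2. Of the replicate 1 promoter peaks, 8 had no counterpart, and these lay in the gene body and ranked between percentiles 49.02 and 68.1.

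Hspb1 was the other closed gene. Its nearest peak was centred 2612 bp downstream of a start in replicate 1 (percentile 49.02) and 2532 bp downstream in replicate 2 (percentile 20.5). Around the outermost start, 5670 bp in replicate 1 and 5570 bp in replicate 2 held no peak, and 5597 and 5443 bp held no hotspot. The gene lies on chromosome 5 from 135887919 to 135889563 on the plus strand. Its 250 bases before the outermost start (chr5:135887669-135887918, plus strand) are shown because they carry a pair of 2-unit heat shock elements, in capitals, at −117 to −110 and −97 to −90 from the start, with no peak over them.
Hspb1 upstream: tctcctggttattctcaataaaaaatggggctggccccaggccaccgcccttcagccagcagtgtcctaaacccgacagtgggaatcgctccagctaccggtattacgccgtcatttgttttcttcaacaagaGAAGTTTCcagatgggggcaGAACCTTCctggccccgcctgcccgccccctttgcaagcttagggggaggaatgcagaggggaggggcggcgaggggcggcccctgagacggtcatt
Chromatin near the gene was not closed throughout. All 10 peaks of replicate 1 in its window were shared, and the strongest of them, 15831 bp downstream of the start and intergenic, ranked at percentile 99.8 in replicate 1 and 99.9 in replicate 2. That was the highest-ranked shared peak outside promoters of protein-coding genes in any of the 10 windows. Its 150 bases (chr5:135903676-135903825, plus strand) hold a GC box and, on the minus strand, CCAAT boxes, which are shown in capitals.
Hspb1 distal peak: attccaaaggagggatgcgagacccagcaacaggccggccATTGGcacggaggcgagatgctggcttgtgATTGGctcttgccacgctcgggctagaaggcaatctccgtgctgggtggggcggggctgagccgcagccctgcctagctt
The peak list does not say which gene, if any, this site acts on.

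Of the co-chaperones, Dnajb1 is the J-domain protein that hands clients to HSP70, Stip1 (HOP) bridges HSP70 and HSP90, and Bag3 is the nucleotide exchange factor that routes HSP70 clients to autophagy. Dnajb1 had best-peak scores of 147 in replicate 1 and 141 in replicate 2, percentiles 99.8 and 98.9, centred 83 and 63 bp upstream of the outermost start. It had 5 promoter peaks in replicate 1 and 1 in replicate 2, so the best peak was the one that both libraries shared. Tecr, an enzyme of very-long-chain fatty acid synthesis, starts 222 bp away on the opposite strand, and the shares of both genes in the peak cannot be told apart. Dnajb1 lies on chromosome 8 from 83608193 to 83612653 on the plus strand.

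Stip1 scored 141 in replicate 1 and 128 in replicate 2, percentiles 98.6 and 95.6. Its best peak was the farthest from a start of the 8 genes, centred 203 bp upstream in replicate 1 and 263 bp upstream in replicate 2, and the peaks of the libraries overlapped by 90 bp. The gene lies on chromosome 19 from 7020702 to 7039967 on the minus strand and has 1 annotated start. The best peak of replicate 2 (chr19:7040156-7040305, minus strand) is shown because it holds a full 3-unit heat shock element, in capitals, which lay outside the best peak of replicate 1.
Stip1 peak: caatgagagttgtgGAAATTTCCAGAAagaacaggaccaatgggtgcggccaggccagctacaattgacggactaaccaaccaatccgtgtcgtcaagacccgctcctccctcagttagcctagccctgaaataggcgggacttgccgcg

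Bag3 scored 136 in replicate 1 and 127 in replicate 2, percentiles 97.3 and 95.3, over the same 150 bp, centred 26 bp upstream of its only start. The gene lies on chromosome 7 from 128523616 to 128546981 on the plus strand. The 250 bases before the start (chr7:128523366-128523615, plus strand) are shown because the last 100 of them lie under the best peak of both libraries, with GC boxes on either strand in capitals.
Bag3 upstream: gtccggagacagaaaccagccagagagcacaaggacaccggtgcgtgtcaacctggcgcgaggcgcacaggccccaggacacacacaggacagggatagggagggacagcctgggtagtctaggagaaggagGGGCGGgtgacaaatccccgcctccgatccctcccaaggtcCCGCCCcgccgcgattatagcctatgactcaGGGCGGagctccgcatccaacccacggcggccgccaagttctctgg
Its 2-unit heat shock element lay 9 to 16 bases downstream of the start, inside the best peak of both libraries, and is shown in capitals within its site (chr7:128523614-128523643, plus strand).
Bag3 site: ggatgggaccaGAAGTTTCtagccggccag

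A set of 7 promoter motifs were looked up by their letters on both strands. The 2-unit heat shock element was TTCNNGAA or GAANNTTC, with N for any base. The 3-unit element adds 1 more unit after 2 more free bases, TTC after GAA or GAA after TTC, and so holds the 2-unit form. The others were CCAAT, the GC box GGGCGG, the TATA box TATAAA, the cAMP response element TGACGTCA and the endoplasmic reticulum stress element, whose first 5 bases are a CCAAT box. A motif counted as in a promoter peak of both libraries if each library had a promoter peak that held it, which need not be the same peak. A match is a description of the letters and not evidence of binding.

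In all, 6 heat shock elements of 3 units lay within 1 kb of a start of the 10 genes, at 5 of them, against 7.72% of all protein-coding genes with at least 1. Hspa8 had a pair of them, 79 to 91 and 237 to 249 bases downstream of its outermost start, and the first lay inside the best peak of both libraries. Hsp90aa1 had 1 on chromosome 12 from 110696387 to 110696399, over an inner start, inside the best peak of replicate 1 and outside that of replicate 2. Stip1 had 1 at −324 to −312 from its start, inside the best peak of replicate 2 and outside that of replicate 1. At these 3 genes the element was inside a hotspot of both libraries. The single elements within 1 kb of starts of Hsp90ab1 and Hspb1 lay in no peak and no hotspot of either library, and both were in the transcribed part.

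Inside a promoter peak of both libraries, the 3-unit element was thus found at 1 of the 8 open genes, Hspa8, against 0.216% of the 12973 genes. Counted within 75 bases of a peak as well, it was found at 3 of the 8 genes, against 0.74% of the 12973 genes. The 2-unit element was inside a promoter peak of both libraries at 4 of the 8 genes (Hspa8, Hspa5, Hsp90ab1 and Bag3), against 11.4%, and at 7 of the 8 when the 75 bases on each side were counted as well, against 25.7%. At Hspa8 and Bag3 that was the best peak. At Hspa5 it was a peak 1340 bp downstream of the outermost start (percentiles 56.9 and 30.9), and at Hsp90ab1 one 681 bp downstream (96.8 and 95.1). The 8 genes also had a higher median number of promoter peaks than the 12973 genes, as given above. In the fixed stretch 250 bases before to 50 bases after the outermost start, peak or not, the 2-unit element was present at 6 of the 10 genes, against 14.4% of all protein-coding genes. Those 6 were the closed Hspa1a and Hspb1 and the open Hsp90aa1, Dnajb1, Stip1 and Bag3. The 3-unit element was present in that stretch at 0 of the 10 genes, against 0.475%, and the endoplasmic reticulum stress element at 0 of 10, against 0.114%.

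Of the general promoter boxes, CCAAT and GC boxes were common in the promoter peaks and the TATA box absent. The GC box was also common, and the TATA box rare, over the 12973 genes. A CCAAT box was in a promoter peak of both libraries at 6 of the 8 genes, against 41.3% of the 12973 genes, and a GC box at 6 of the 8, against 65.7%. At Dnajb1 the CCAAT box was in different peaks, at −803 bp in replicate 1 (percentile 37.5) and at −63 bp, the best peak, in replicate 2. The best peak of replicate 1 there, at −83 bp, held none. The TATA box was in such a peak at 0 of the 8 genes, against 5.13%. The cAMP response element was found at 1 of the 8, Hsp90ab1, at −123 to −116 from its outermost start and inside the best peak of both libraries, against 3.65%. In the fixed stretch round the outermost start, a CCAAT box was present at 7 of the 10 genes, against 39% of all protein-coding genes, and a GC box at 9 of the 10, against 43%. The TATA box was present there at 1 of the 10, Stip1, against 12.7%, and the cAMP response element at 1 of the 10, again Hsp90ab1, against 2.43%.

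Both closed promoters held sequence that recurs in the genome, but at different places. Among the 36-base words within 1 kb of the outermost start, 53.5% (1051 of 1966) at Hspa1a and 30.2% (594 of 1966) at Hspb1 occurred elsewhere in the genome, while the other 8 genes ranged from 0% to 6.56%. In the stretch 250 bases before to 50 bases after the start, the share was 65.7% (174 of 265) at Hspa1a and 0% at Hspb1 and at each of the other 8 genes. The longest repeated run at Hspb1 went from 146 to 516 bases downstream of the start, and 552 of the repeated words recurred on chromosome 13. No source used here says how reads that match several places were treated. The part of repeated sequence in the missing peaks of Hspa1a and Hspb1 was not tested.

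**Figure D3:**
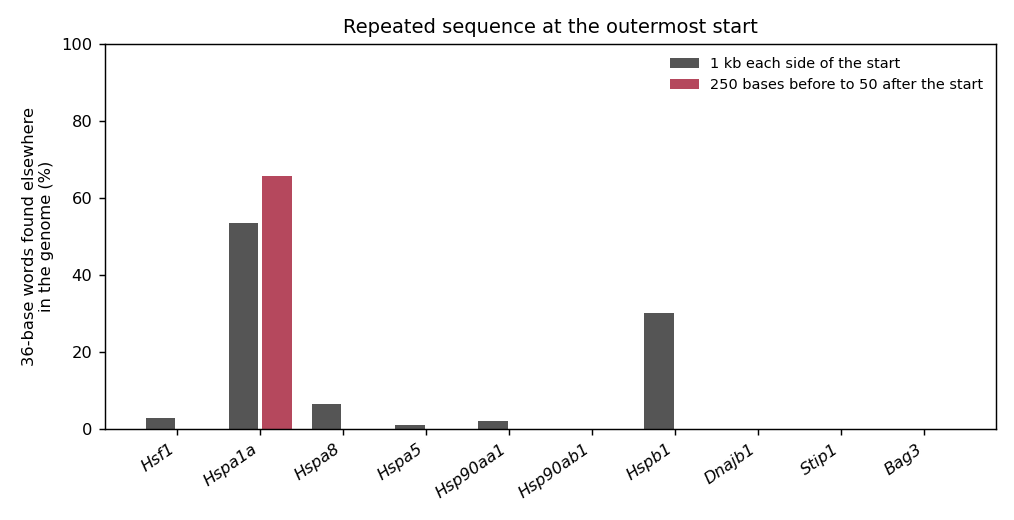
Share of 36-base words found elsewhere in the genome (y axis, percent) within 1 kb of the outermost start (grey) and from 250 bases before to 50 after it (red) for the 10 genes. Hspa1a reaches 53.5% and 65.7%, Hspb1 reaches 30.2% and 0%, and a missing bar is 0%.

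By base composition, the closed promoters were of a kind that mostly carried a peak in these cells. Genes were put in 10 equal bins by the ratio of observed to expected CpG dinucleotides round the outermost start, from the lowest (1) to the highest (10). Hspa1a, at a ratio of 0.813, was in bin 10, where 90.7% of genes had one in each library, and Hspb1, at 0.624, was in bin 7, where 84.3% had one. The open genes other than Hsp90aa1 were in bins 8 to 10, where 86.8% to 90.7% of genes had one. Hsp90aa1, at 0.252 round its outermost start, was in bin 4, where 43.2% had one, and was open. The highest peak at that start ranked at percentile 83.5 in replicate 1 and 86.9 in replicate 2. Its best peak lay at inner starts, where the ratio was not computed.

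Across the 10 windows there were 223 peaks in replicate 1 and 190 in replicate 2, of which 136 (61.0%) and 139 (73.2%) were shared. The median density of shared peaks was 2.502 per 10 kb over the 10 genes, with a range of 1.34 to 4.18, against a median of 0.792 per 10 kb over all protein-coding genes. The densest window was that of Hsp90ab1, with 47 peaks in replicate 1 and 23 in replicate 2, and 98.6% of all genes had a lower density of shared peaks. Hsf1 followed with 31 peaks in replicate 1 and 33 in replicate 2, at a density of 3.88 that was above 98.1% of all genes. Both windows hold the starts of 4 other protein-coding genes. Bag3, with 31 peaks in replicate 1 and 27 in replicate 2, had no other gene starting in its window, and its density was above 94.3% of all genes. Hsp90aa1 and Dnajb1 had the sparsest windows, at 1.34 and 1.35 shared peaks per 10 kb.

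The closed genes did not lie in empty windows. Hspa1a had 21 peaks in replicate 1 and 15 in replicate 2, 11 of them shared in each, of which 4 were at the promoters of other genes, 1 was exonic and 6 were intergenic. Hspb1 had 10 peaks in replicate 1 and 15 in replicate 2, and all 10 shared peaks were intergenic. Densities of shared peaks were 2.56 and 2.40 per 10 kb at Hspa1a and Hspb1, above 90.5% and 88.8% of all genes.

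**Figure D4:**
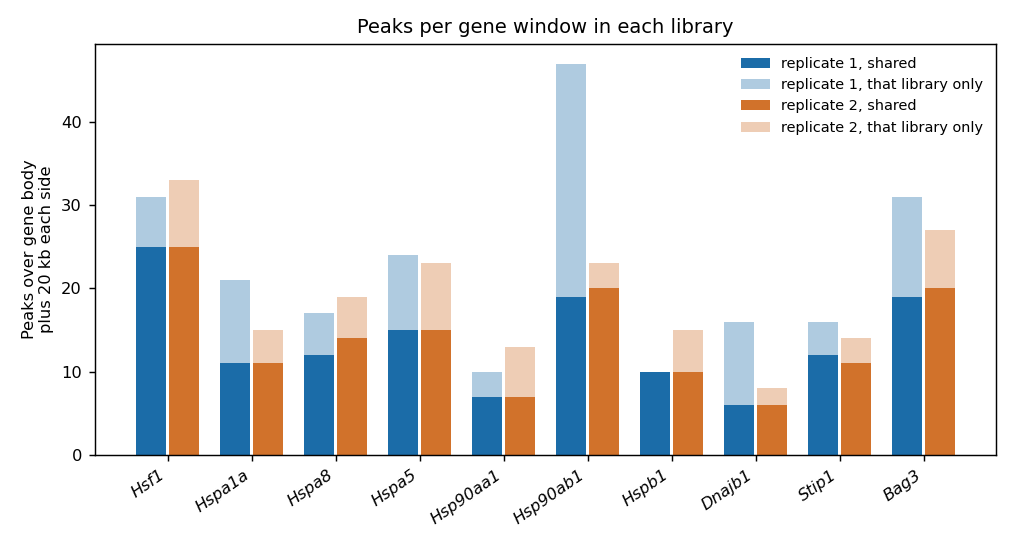
Number of peaks over the gene body plus 20 kb on each side (y axis) for the 10 genes in replicate 1 (blue) and replicate 2 (orange), with peaks shared between libraries in the dark part of a bar and those of 1 library in the light part. Hsp90ab1 in replicate 1 has the tallest bar with 47 peaks, 28 of them in that library only, while Hspb1 in replicate 1 has only shared peaks.

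The share of replicate 1 peaks found in both libraries was lowest at Dnajb1 and Hsp90ab1. At Hsp90ab1 40.4% of the replicate 1 peaks and 87.0% of the replicate 2 peaks were shared, and at Dnajb1 37.5% and 75%. By place, the shared peaks of replicate 1 over all windows were 25 at the genes' own promoters, 24 at promoters of other genes, 9 in exons, 34 in introns and 44 between genes. Bag3 had the most shared peaks outside all promoters, 17. The strongest of them in replicate 1 lay in its own intron 6054 bp from the start, at percentile 93.0, and its counterpart in replicate 2 was at 82.7. In replicate 2 the strongest lay in the same gene's intron at 8534 bp, at percentile 93.4, with a counterpart in replicate 1 at 90.3. Hsf1 followed with 16, the strongest in an intron of Bop1 at −15972 bp from the outermost start, at percentiles 98.1 and 96.6. Hspa5 had such a peak at −1680 bp with a 2-unit heat shock element, at percentile 91.2 in replicate 1 and 54.3 in replicate 2.

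In peaks away from promoters, heat shock elements were found at a share near that of the whole genome. Of the 87 shared peaks outside promoters in the 10 windows, 6 (6.90%) held a 2-unit element, against 6.71% of the 82320 such peaks in the genome, and 0 held a 3-unit element, against 0.162%. A CCAAT box was in 26 of the 87 (29.9%), against 18.6%, and a GC box in 8 (9.20%), against 6.27%.

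The wider chaperone machinery was read in 8 lists with 99 genes, of which 98 were protein-coding in the annotation and Cct6a was not. A promoter peak was present in both libraries at 92 of the 98 (93.9%), in 1 library at 1 and in neither at 5, against 59.2% of all protein-coding genes with one in both. By promoter CpG, 13 of the 92 genes with a peak in both and 1 of the 6 without were in the lower 5 of the 10 bins. All 15 HSP90 proteins and co-chaperones, all 11 BAG proteins and other HSP70 cofactors, all 10 chaperonins and all 19 genes of the endoplasmic reticulum chaperones and unfolded protein response had one in both. The J-domain proteins had it at 17 of 18, the small heat shock protein list at 8 of 9 and the HSP70 and HSP110 family at 9 of 11. The heat shock factor list had it at 3 of 5, namely the factor Hsf2 and the factor-binding proteins Hsbp1 and Hsf2bp. The mean percentile of the best promoter peak over the libraries had a median of 97.9 over the 92 genes. By list it ran from 91.1 for the small heat shock protein list to 99.5 for the heat shock factor list.

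Among the open genes of these lists, the highest of the heat shock factor list were Hsf2 and the factor-binding protein gene Hsbp1 (mean percentiles 99.9 and 99.5). Hspa4 and Hsph1, HSP110-type exchange factors of HSP70, led their list (99.9 and 99.7). Ahsa2 and the p23 gene Ptges3 led the HSP90 co-chaperones (both 99.6), and Dnajb9 and Dnajc5 the J-domain proteins (99.8 and 98.9). Hspb6 and Hspb11 led the small heat shock protein list (97.6 and 96.8), where Hspb11 is placed by its symbol and encodes a subunit of the ciliary transport complex. The ubiquitin ligase gene Stub1 and the HSP70-interacting St13 led the cofactors (99.8 and 99.4), and Tcp1 and Cct2, subunits of the cytosolic chaperonin, the chaperonins (99.8 and 99.5). Ddit3, the stress factor CHOP, and Creld2 led the endoplasmic reticulum list (both 99.9).

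Without a promoter peak in either library were Hsf4, a factor best known from the lens, Hsf5, a factor of male germ cells, the testis HSP70 Hspa1l, the J-domain gene Dnaja4 and the lens crystallin Cryaa. Hspa1b, the near-identical copy of Hspa1a, had a promoter peak in replicate 2 only, at percentile 16.2, and none in replicate 1. Its promoter held 53.2% repeated 36-base words and that of Hspa1l 25.8%, while those of Hsf4, Dnaja4 and Cryaa held 0% and that of Hsf5 1.17%. Repeated words made up over 10% of the promoter at 2 of the 6 genes without a promoter peak in both libraries and at 4 of the 92 genes with one, where the 4 ranged from 13.3% to 21.6%.

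**Figure D5:**
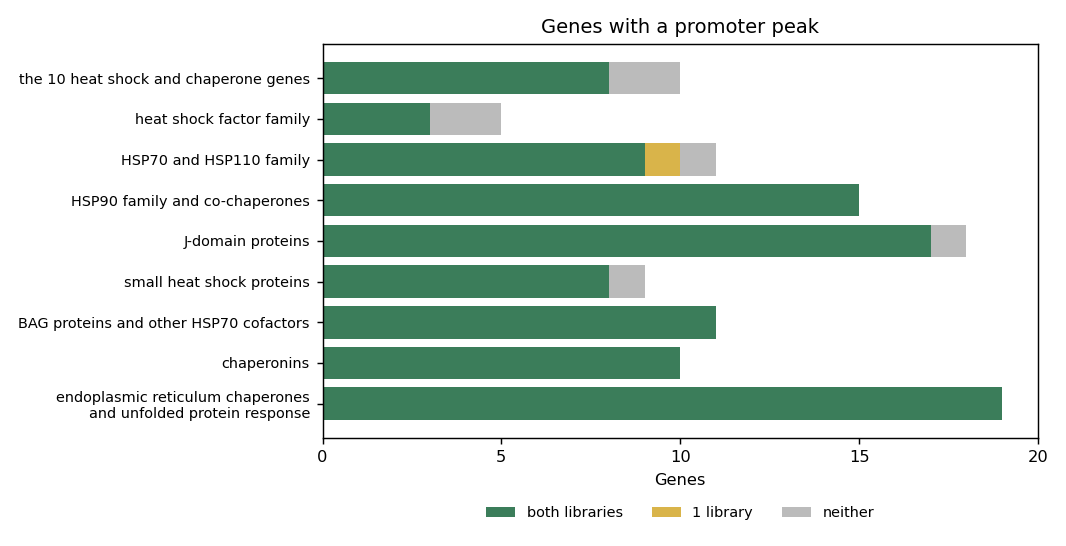
Number of genes (x axis) with a promoter peak in both libraries (green), in 1 library (yellow) or in neither (grey) for the 10 genes, in the top bar, and for each of the 8 other chaperone lists. In 4 of the lists all genes are green, and grey marks Hspa1a and Hspb1 in the top bar and 5 genes in the other lists.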

How the data were processed

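DNase-seq peaks and hotspots of 2 MN1 libraries (1 group) were used as deposited, on mm10. Per the notes supplied with the files, each list was made from filtered alignments, library by library. The peak score is the authors' and was only ranked within its list. The q-value of the deposited hotspots is on the −log10 scale, from 1.30 to a cap of 100. The aligner, the caller with its threshold, and the read depth were not given in the sources used here.

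Repeated entries were removed (43 in replicate 1, 20 in replicate 2), and peaks on the 19 autosomes, X and Y were kept. Protein-coding genes came from GENCODE M21, with records of the same symbol merged. Starts of noncoding genes were not used in placing peaks, so intergenic and outside promoters refer to protein-coding genes only. A feature was at a promoter if it overlapped by 1 bp or more the region within 1 kb of a start. Sequences, 36-base words and motifs were read from the RefSeq GRCm38 genome, which is the assembly of mm10. The RefSeq promoter table held 6 of the 10 genes, with entries equal to the genome. Python 3.11.15, numpy 2.4.6, pandas 2.3.3, scipy 1.17.1 and matplotlib 3.10.9 were used, and the scripts were tested on simulated data.

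All 10 genes are reported. From the other lists, those without a promoter peak in both libraries and the 2 highest per list are named, and of the neighbours those starting within 1 kb. The genes and lists were chosen with earlier results of these data known, so no count over them was tested, and with 1 group no test between samples was made. Both libraries are biological replicates per the labels.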

Additional observations from a re-analysis of the deposited data

How the results depend on the processing

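The 8 genes with a promoter peak and the 8 with a promoter hotspot stayed 8 under each alternative tried for them: promoters of 500 bp and 2.5 kb, the outermost start only, each library alone, peaks at or above the median score, peak centres only, and hotspots with a −log10 q of 2 or more. The count of 92 other chaperone genes ranged from 91 to 93 under the alternatives tried for it. The count of genes with a 3-unit heat shock element in a promoter peak, 1 in both libraries, depended on the setting. It was 2 with each library left out (2 without replicate 1 and 2 without replicate 2), 3 within 75 bases of a peak, 5 anywhere within 1 kb of a start (counted, as below, over all 10 genes, peak or not), and 4 for the 2-unit form. That count of 4 became 7 within 75 bases of a peak and 10 anywhere within 1 kb. Anywhere within 1 kb, the GC box count of 6 became 10, the TATA box count of 0 became 6 and the endoplasmic reticulum stress element count of 0 became 1, and with 2.5 kb promoters the TATA box count became 1. The 136 shared peaks of the windows became 262 with 50 kb on each side, and each library's whole list gave 190 without replicate 1 and 223 without replicate 2. Repeated words at the promoter of Hspb1 moved to 17.5% with 76-base words, from 30.2%, while Hspa1a, at 45.3%, moved by less than 1.5 times.

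No paired analysis was possible because there is 1 group. With 2 libraries, a peak present in 1 list only cannot be told apart from one missed for depth, which is unknown. Absence of a peak means that none was called at that depth and with an unknown treatment of reads that match several places.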
